A study of Mus musculus with 2 samples.

Results

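The genes described here are the matrix metalloproteinases (MMPs), the ADAMTS proteases and the ADAMTS-like proteins, and the tissue inhibitors of metalloproteinases (TIMPs), in mouse heart compared with mouse embryonic fibroblasts (MEF). They were chosen by name: every gene whose platform symbol begins with Mmp, Adamts, Adamtsl or Timp followed by a digit. This gave 46 of the 19532 genes measured, read by 74 probes: 20 MMPs, 17 ADAMTS proteases, 5 ADAMTS-like genes and 4 TIMPs. The mouse genes Mmp1b, Mmp15, Mmp27, Adamts2 and Adamts17 had no probe under those symbols and were not analysed here.

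The study hybridised total RNA on 2 two-colour Agilent arrays. Per the labels, Cy3-labelled RNA of heart-1 or of heart-2, untreated and taken without culture, was paired on each array with Cy5-labelled RNA of MEF, connective-tissue cells from embryos grown in DMEM with serum. Both arrays carry the same dye assignment, so a probe's preference for a dye remains in its ratio. The labels name no strain, age, genotype or passage number, and they leave it unsaid if heart-1 and heart-2 are different animals and if the MEF RNA is of more than 1 culture. The p-values therefore rest on how far 2 arrays differ, a spread that may be technical and holds no known variation of MEF.

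Values are log2 ratios, in which 1 unit is a 2-fold difference, and positive values are read as higher in heart. The labels do not state the direction. It was read from 17 cardiomyocyte genes, such as Myh6 and Tnni3, whose median was 6.52 and of which 17 were above 0 on both arrays, so this direction is likely rather than stated. The array medians were 0.07 and -0.14, and across genes the ratios of the 2 arrays correlated with Pearson's r = 0.982 and Spearman's rho = 0.959, given as a description since both arrays share MEF and genes are not replicates. Each gene's mean was tested against 0 with limma and its p-value adjusted over all 19532 genes by the Benjamini-Hochberg method; an adjusted p under 0.05 is called passing. Channel intensities were not used, so levels are not compared between genes. In RNA of a whole tissue, fewer cells of a type and less RNA per cell cannot be told apart.

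MMPs are zinc proteases that cut collagens and other matrix proteins. Most are made as inactive proenzymes and are opened by other proteases, some at the cell surface by the membrane-type MMPs. ADAMTS proteases are secreted relatives with thrombospondin repeats that cut proteoglycans, procollagens and von Willebrand factor, and the ADAMTS-like proteins share their repeats but lack the protease domain. TIMPs bind the active site of MMPs and block it. In the heart these families are known for the turnover of the collagen network and for remodelling after injury.

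Several MMP genes lie side by side on mouse chromosome 9, in the order Mmp13, Mmp12, Mmp1b, Mmp3, Mmp1a, Mmp10, Mmp8, Mmp27, Mmp20 and Mmp7. AP-1, a dimer of Fos and Jun proteins, is a textbook regulator of several of them, and the letters TGAGTCA, its usual binding motif, were looked up on both strands of the RefSeq promoter windows of build GRCm38.p6, from 250 bases before to 50 bases after an annotated start. Of the 10 cluster genes 7 held the motif, against 0 of the 26 other genes of these families with a window in the table and 5.95% of all 27025 genes in it. Only exact matches were searched, so variant sites are not counted. A window was found for 31 of the 46 measured members, and Mmp2 and Mmp9 are among those without one. The 120 bases before the start are printed 5′ to 3′ for the 6 measured cluster genes with the motif and for Mmp8, which had none in its window and was the cluster gene with the highest ratio. Capitals mark AP-1 motifs (TGAGTCA or its reverse complement TGACTCA) and, nearer the start, the TATA box letters TATAAA, searched on the gene's own strand only and held by 9.77% of all genes in the table.
Mmp13, chr9:7272394-7272513, plus strand: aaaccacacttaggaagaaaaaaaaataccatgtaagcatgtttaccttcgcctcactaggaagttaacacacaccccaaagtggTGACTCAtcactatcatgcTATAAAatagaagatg
Mmp12, chr9:7347254-7347373, plus strand: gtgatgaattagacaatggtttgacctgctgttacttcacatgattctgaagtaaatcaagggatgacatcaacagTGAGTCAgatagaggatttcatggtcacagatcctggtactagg
Mmp3, chr9:7445702-7445821, plus strand: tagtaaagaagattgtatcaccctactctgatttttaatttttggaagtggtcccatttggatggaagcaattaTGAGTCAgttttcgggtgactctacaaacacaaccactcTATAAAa
Mmp1a, chr9:7464021-7464140, plus strand: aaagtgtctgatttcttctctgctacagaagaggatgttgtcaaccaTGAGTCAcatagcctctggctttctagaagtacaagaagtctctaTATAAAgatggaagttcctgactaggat
Mmp10, chr9:7502222-7502341, plus strand: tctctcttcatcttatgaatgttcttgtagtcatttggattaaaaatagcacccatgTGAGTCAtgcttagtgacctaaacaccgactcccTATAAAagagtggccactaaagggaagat
Mmp7, chr9:7691970-7692089, plus strand: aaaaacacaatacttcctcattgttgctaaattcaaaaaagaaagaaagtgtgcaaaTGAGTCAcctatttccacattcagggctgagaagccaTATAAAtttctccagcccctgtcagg
Mmp8, chr9:7558309-7558428, plus strand: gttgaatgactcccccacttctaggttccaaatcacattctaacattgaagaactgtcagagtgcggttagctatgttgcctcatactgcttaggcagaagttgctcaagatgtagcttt

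The Mmp12 and Mmp7 stretches belong to 1 of 2 annotated starts each; the window of the other start held no AP-1 motif. The first base of the motif lay at -35 in Mmp13, -44 in Mmp12, -46 in Mmp3, -63 in Mmp10 and Mmp7, and -73 in Mmp1a, where -1 is the base just before the annotated start. Only Mmp13 carries the reverse complement among these 6. A match is a description of the letters in the window and does not show that a factor binds there.

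The promoter stretches of the 3 members with the largest differences are printed in the same way. Mmp14 and Timp1, the lowest ratios of the families, and Timp4, the highest, held no exact match to the AP-1 letters in their windows. The same is true of all 26 genes of these families outside the cluster with a window. Capitals mark the GC box letters GGGCGG or their reverse complement CCGCCC, with 2 side by side in Mmp14 and 1 in Timp1. The GC box was present in 22 of the 36 genes of these families with a window (61.1%), against 38.2% of all genes in the table. These motifs, like AP-1, were chosen after the ratios were seen. The printed Timp4 stretch held none of the 3 motifs.
Mmp14, chr14:54431478-54431597, plus strand: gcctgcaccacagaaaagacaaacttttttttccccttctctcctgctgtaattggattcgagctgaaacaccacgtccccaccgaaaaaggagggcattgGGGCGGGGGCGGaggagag
Timp1, chrX:20870046-20870165, plus strand: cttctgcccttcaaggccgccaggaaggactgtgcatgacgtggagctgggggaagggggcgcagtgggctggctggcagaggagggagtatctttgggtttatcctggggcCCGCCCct
Timp4, chr6:115252206-115252325, minus strand: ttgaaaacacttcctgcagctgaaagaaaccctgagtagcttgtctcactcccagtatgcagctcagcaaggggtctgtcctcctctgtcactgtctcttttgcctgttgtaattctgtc

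More of these genes were lower than higher in heart. Of the 46 members 24 fell (52.2%), against 39.3% of all genes tested, 12 rose (26.1%), against 33.8% of all genes, and 10 did not pass; 78.3% of members passed in either direction, against 73.1% of all genes. The excess over the background was larger among the strong differences. At least 2-fold lower on both arrays were 18 members (39.1%), against 18.5% of all genes, whereas 7 members (15.2%) were at least 2-fold higher on both arrays, against 18.1% of all genes. In limma's treat test against a 2-fold change 16 members were lower and 7 higher of the 46, against 14.6% and 15.1% of all genes. In the mean, 15 members (32.6%) were at least 4-fold lower, against 7.73% of all genes, and 3 (6.52%) at least 4-fold higher, against 9.53%. Mmp14 and Timp1 were at least 16-fold lower, as were 1.36% of all genes. The median ratio of the members was -0.54, against -0.04 over all genes.

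**Figure D1:**
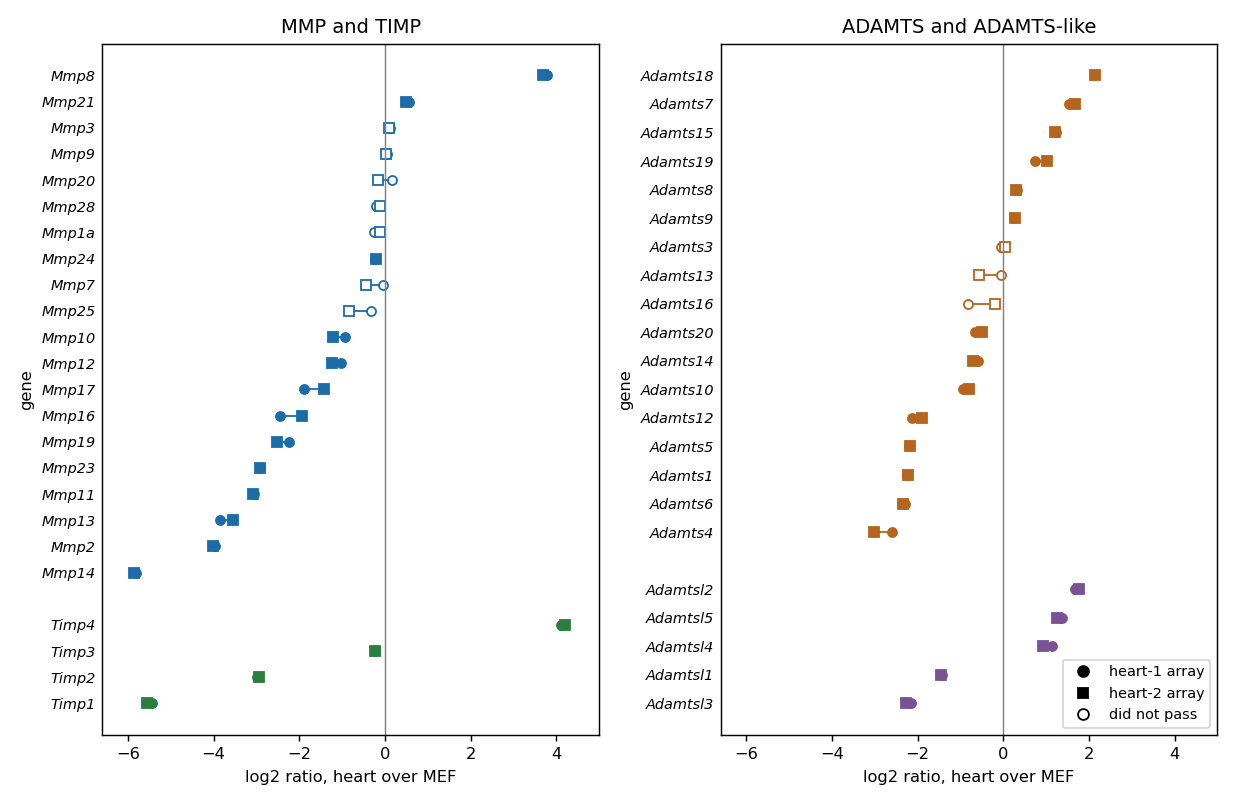
Log2 ratio (heart over MEF) of each of the 46 genes on the heart-1 array (circles) and the heart-2 array (squares), by family; filled symbols passed the limma test and open symbols did not. The arrays lie close together for nearly every gene, from Mmp14 at -5.84 to Timp4 at 4.15.

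The 4 inhibitors spanned nearly the whole range of the families. In heart 3 were lower (75%, against 39.3% of all genes) and 1 was higher (25%, against 33.8%). Timp4, the inhibitor known for its high expression in heart muscle, stood at 4.10 for heart-1 and 4.21 for heart-2, from 1 probe. Both arrays placed it far above 0, 17.8-fold higher in heart (4.15 ± 0.07, SD, n = 2; limma adjusted p = 0.00136), the highest ratio of the 46 genes and the 471st highest of all 19532. Timp1, an inducible inhibitor that was also described as a growth factor for blood cell precursors, stood at -5.43 and -5.55. Both arrays placed it well below 0, 45.0-fold lower in heart (-5.49 ± 0.09; limma adjusted p = 0.00136), and its 2 probes had means of -5.70 and -5.29. The Timp4 ratio exceeded the Timp1 ratio by 9.53 with heart-1 and by 9.76 with heart-2.

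The remaining inhibitors were lower in heart to different extents. Timp2, which blocks MMPs and also takes part in activating pro-MMP2 at the cell surface, was at -2.98 and -2.95 on the 2 arrays. Its fall was 7.79-fold, with the arrays nearly equal (-2.96 ± 0.02; limma adjusted p = 0.00136). Timp3, which stays bound to the matrix and also inhibits ADAM and ADAMTS proteases, was at -0.23 and -0.22. That small fall passed (limma adjusted p = 0.0248) but ceased to pass once each array was centred on its median (-0.19). In the RefSeq annotation Timp1, Timp3 and Timp4 lie inside the synapsin genes Syn1, Syn3 and Syn2, and the ratios of these hosts were small: Syn1 did not pass at -0.07, and Syn3 and Syn2 rose to 0.54 and 0.79. Timp2 overlaps Cep295nl, which fell to -3.48 ± 0.22, and its part in the Timp2 ratio was not tested.

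The membrane-type MMPs, which act on the cell surface, were lower in heart or did not pass. Of 5 measured genes 4 fell (80.0%, against 39.3% of all genes) and Mmp25 did not pass. Mmp14, also called MT1-MMP, a collagenase of the cell surface and the main activator of pro-MMP2, was at -5.82 with heart-1 and -5.87 with heart-2. It was the lowest of the 46 genes on both arrays and the 49th lowest of all genes, 57.4-fold lower in heart (-5.84 ± 0.04; limma adjusted p = 0.00136), with probe means of -6.20 and -5.49. Mmp16, another transmembrane type, fell to -2.19 ± 0.36, but its 2 probes differed, with means of -3.76 and -0.63. Mmp17, which is held to the membrane by a lipid anchor, fell to -1.65 ± 0.33 with probes at -2.82 and -0.48. Mmp24 was at -0.22 ± 0.02, a small fall that ceased to pass once the arrays were centred (-0.18).

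Of the gelatinases, which cut denatured collagen and the type IV collagen of basement membranes, Mmp2 fell and Mmp9 did not pass. Mmp2, a gelatinase made widely by mesenchymal cells, was at -3.98 and -4.01. Both arrays put it 15.9-fold lower in heart (-3.99 ± 0.02; limma adjusted p = 0.00136). Mmp2, its activator Mmp14 and Timp2, which links them on the cell surface, were thus each at least 2-fold lower in heart on both arrays. Mmp9, the gelatinase of neutrophils and other leukocytes, was at 0.04 and 0.02, close to no difference (0.03 ± 0.01; limma adjusted p = 0.50). Its 2 probes had means of -0.10 and 0.16. Without channel intensities such a ratio cannot be told from that of a gene measured in neither RNA.

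Among the collagenases, which can cut native fibrillar collagen, Mmp13 and Mmp8 stood at opposite ends. Mmp13, a collagenase of bone and cartilage and the main fibroblast collagenase of rodents, was at -3.86 and -3.54. It fell 13.0-fold (-3.70 ± 0.23; limma adjusted p = 0.00204). Mmp8, called neutrophil collagenase, was at 3.80 and 3.70, from 1 probe. It rose 13.4-fold (3.75 ± 0.07; limma adjusted p = 0.00136), the only MMP at least 2-fold higher on both arrays. Mmp8 exceeded Mmp13 by 7.66 with heart-1 and by 7.24 with heart-2. Mmp1a, the rodent relative of human interstitial collagenase, was at -0.25 and -0.12 and did not pass (limma adjusted p = 0.0858), with its 2 probes at -0.68 and 0.31.

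In the order of the chromosome 9 cluster the ratios did not run together. The genes with the AP-1 motif in their windows ranged from Mmp13 at -3.70 through Mmp12 (-1.13 ± 0.16) and Mmp10 (-1.08 ± 0.19), which fell, to Mmp7 (-0.24 ± 0.27), Mmp1a (-0.18 ± 0.09) and Mmp3 (0.11 ± 0.01), which did not pass. Of these 6 measured genes 3 fell and 3 did not pass, against 39.3% of all genes that fell, and with 6 genes chosen after the ratios were seen nothing is read from that share. Mmp3 is stromelysin-1, a broad matrix protease that also activates collagenases, and its value was 0.11 with heart-1 and 0.10 with heart-2. Of the 2 measured cluster genes without the motif Mmp8 rose and Mmp20, the enamelysin of teeth, stood at 0.16 and -0.17, on either side of 0. Mmp20 was the only member whose probe lay within the narrow spike of near-constant values that 3333 probes shared on both arrays.

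**Figure D2:**
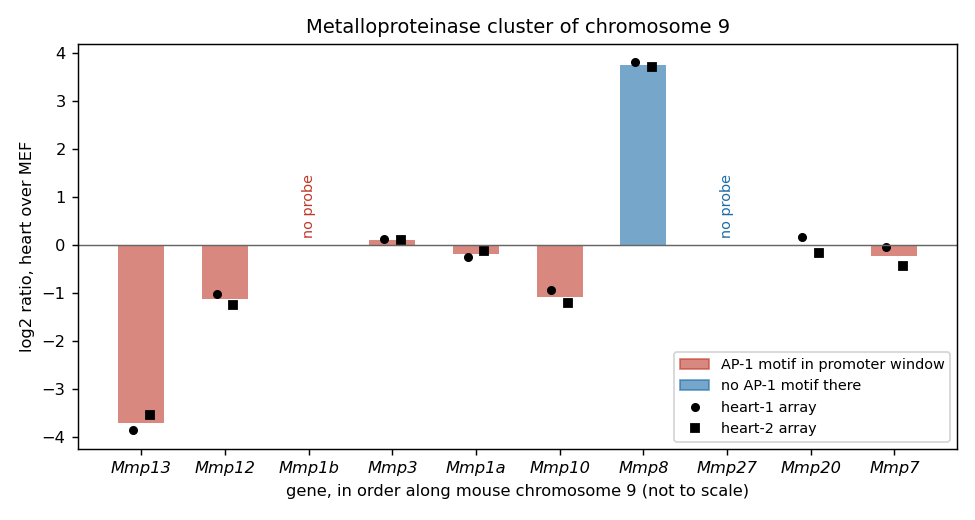
Log2 ratio (heart over MEF) of the 10 metalloproteinase genes of mouse chromosome 9 in their genomic order; bars are means of 2 arrays, circles and squares the heart-1 and heart-2 arrays, red genes hold the AP-1 letters in their promoter window and blue genes do not. Mmp13 at -3.70 and Mmp8 at 3.75 lie in the same cluster, and 2 genes had no probe.

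The genes of the AP-1 subunits themselves were counted too, a subset taken after the ratios were seen. Of 7 measured Fos and Jun family genes 6 fell, against 39.3% of all genes, and Fosb rose. At least 2-fold lower on both arrays were 4 of the 7 (57.1%), against 18.5% of all genes. The smallest falls were Jun at -0.79 ± 0.01 and Fosl2 at -0.58 ± 0.02, the latter over probes at -2.24 and 1.08. Fos was at -3.32 ± 0.42, though its 2 probes had means of -5.24 and -1.39, and Junb was at -2.87 ± 0.06. Fosl1, an AP-1 subunit induced by growth factors, was at -1.58 ± 0.03, Jund at -1.21 ± 0.04 and Fosb at 0.97 ± 0.14. Their part in the ratios of the cluster genes was not tested.

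Markers of leukocytes moved with some members. Over all genes 33.8% rose, 39.3% fell and 73.1% passed in either direction. Of 11 neutrophil markers other than MMPs 8 rose, 1 fell and 2 did not pass (median 2.57, range -0.30 to 9.38), with S100a8 at 9.38 ± 0.07 and Retnlg at 6.57 ± 0.22. Among the granule genes of the list Lcn2 (4.78 ± 0.23), Camp (2.91 ± 0.06) and Ltf (2.12 ± 0.19) rose. Elane did not pass at 0.0035 ± 0.20, Mpo fell to -0.30 ± 0.09 and Ngp differed between the hearts, with 0.81 on heart-1 and 2.51 on heart-2. Mmp8, Mmp9 and Mmp25, or leukolysin, are all stored in neutrophils. Their ratios were 3.75, 0.03 and -0.58, so of these 3 only Mmp8 rose. Mmp25 was at -0.32 and -0.84 and did not pass (limma adjusted p = 0.0874), although it passed once the arrays were centred (-0.54). Of 9 macrophage markers other than MMPs 7 fell, 1 rose and 1 did not pass (median -1.66). Mmp12, the macrophage elastase, was at -1.02 and -1.24 and fell 2.19-fold, and Cd163, a scavenger receptor of resident macrophages, rose to 6.67 ± 0.51. The part of leukocyte number in these ratios was not tested.

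**Figure D3:**
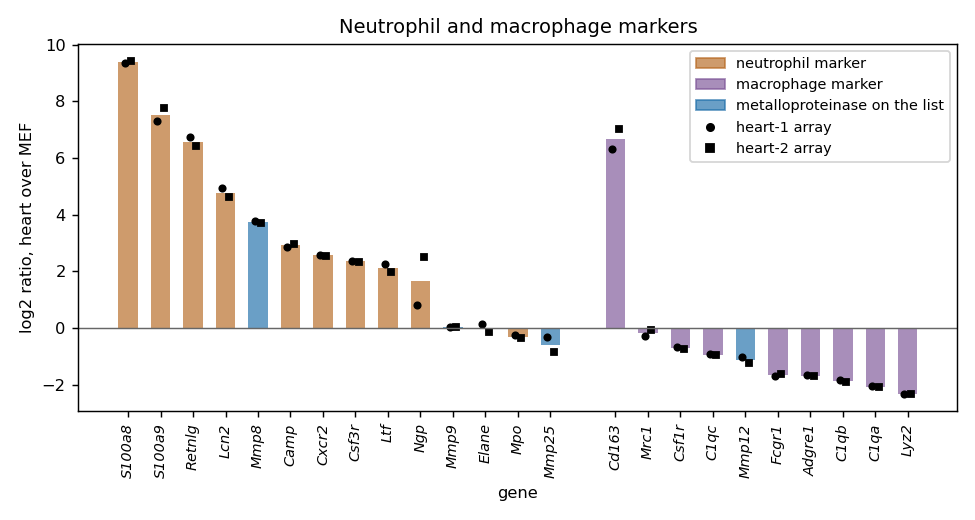
Log2 ratio (heart over MEF) of neutrophil and macrophage marker genes, with MMPs of those lists in blue; bars are means of 2 arrays, circles and squares the heart-1 and heart-2 arrays. Mmp8 at 3.75 stands among the higher neutrophil markers, and Mmp9 at 0.03 and Mmp25 at -0.58 do not. Mmp12 is at -1.13, beside macrophage markers from -2.32 to -0.17 and Cd163 alone at 6.67.

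Of the remaining MMPs Mmp11, Mmp23 and Mmp19 fell, Mmp21 rose and Mmp28 did not pass. Mmp11, stromelysin-3, a protease of the stroma around tumours and of tissue under remodelling, was at -3.06 and -3.08. Both arrays gave an 8.42-fold fall (-3.07 ± 0.01; limma adjusted p = 0.00136). Mmp23, an unusual family member made as a membrane protein without the haemopexin domain, was at -2.93 and -2.92, a fall of 7.58-fold (limma adjusted p = 0.00136). Mmp19, a widely expressed soluble MMP, was at -2.25 and -2.52 and fell 5.22-fold (limma adjusted p = 0.00282). Mmp21, known for a role in left-right patterning of the embryo, was at 0.56 and 0.48 and rose 1.43-fold (limma adjusted p = 0.00823). Mmp28, or epilysin, was at -0.20 and -0.12 and did not pass (limma adjusted p = 0.0687), with its 2 probes at -0.45 and 0.13. Over the whole MMP family 11 of 20 genes fell, 2 rose and 7 did not pass, with a median of -0.83. These are 55% lower and 10.0% higher, against 39.3% and 33.8% of all genes, and 65% passed in either direction, against 73.1%.

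The ADAMTS proteases that cut the large proteoglycans aggrecan and versican went both ways. Of 7 genes of this group 4 fell (57.1%, against 39.3% of all genes) and 3 rose (42.9%, against 33.8%). Adamts4, an aggrecanase, was at -2.60 and -3.01. It fell 6.98-fold (-2.80 ± 0.29; limma adjusted p = 0.00382), the lowest ratio among ADAMTS genes. Adamts1, which cuts versican and is known as an inhibitor of angiogenesis, was at -2.26 and -2.23, with both probes low, at -2.48 and -2.0. Adamts5, the other main aggrecanase, was at -2.21 and -2.19, with probes at -2.52 and -1.87. Adamts1 fell 4.73-fold and Adamts5 4.59-fold (limma adjusted p = 0.001365 for each).

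The 3 members of that group that rose were Adamts15, Adamts8 and Adamts9. Adamts15, a proteoglycanase found in muscle development, was at 1.23 and 1.20 and rose 2.32-fold (1.22 ± 0.02; limma adjusted p = 0.00198). Adamts8, another proteoglycanase, rose to 0.31 ± 0.02 and Adamts9, which cuts versican, to 0.26 ± 0.0038, and both ceased to pass once the arrays were centred. The 3 Adamts9 probes had means of -0.22, 0.41 and 0.59. Adamts20, its close relative, fell to -0.58 ± 0.11 as the mean of probes at -1.71, -1.06 and 1.03.

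Adamts7 and Adamts12 form a pair that cuts COMP, the cartilage oligomeric matrix protein, and they had opposite signs. Adamts7 was at 1.53 and 1.68, a rise of 3.04-fold (1.61 ± 0.11; limma adjusted p = 0.00265), with probes at 1.23 and 1.98. Adamts12 was at -2.12 and -1.90, a fall of 4.03-fold (-2.01 ± 0.16; limma adjusted p = 0.00295), with probes at -2.13 and -1.89. The 2 genes differed by 3.65 with heart-1 and 3.58 with heart-2, and within each gene the probes shared a sign. Comp, their substrate, rose to 2.46 ± 0.02.

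Of the remaining ADAMTS genes Adamts6 and Adamts18 differed most from 0. Adamts6, a relative of Adamts10 that is needed for heart development in mice, was at -2.29 and -2.34. It fell 4.98-fold (-2.32 ± 0.04; limma adjusted p = 0.00138), with probes at -2.45 and -2.18. Adamts10, a protease of fibrillin microfibrils that is mutated in human Weill-Marchesani syndrome, fell to -0.87 ± 0.09 as the mean of probes at -1.63, -1.41 and 0.43. Adamts18 was at 2.12 and 2.15 and rose 4.40-fold as a gene mean (limma adjusted p = 0.001365). Its 2 probes differed: the probe on a RefSeq mRNA was at 0.30 and 0.04 on the arrays, and the probe on another accession at 3.95 and 4.26. Adamts19, a gene linked to heart valve disease in humans, rose to 0.88 ± 0.19 as the mean of probes at -0.69, 0.31 and 3.0, and with the median of its probes in place of the mean it did not pass (0.31). Adamts16 was at -0.82 and -0.20 and did not pass, with probes at -1.66 and 0.63.

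The procollagen N-propeptidases trim the ends of fibrillar procollagen, and both measured genes had small ratios. Adamts14 fell to -0.65 ± 0.07. Adamts3, which also activates the lymphatic growth factor VEGF-C, was at -0.05 and 0.04 and did not pass (limma adjusted p = 0.99). Adamts13, which cuts von Willebrand factor in blood, was at -0.05 and -0.58 and did not pass (limma adjusted p = 0.24), while Vwf, its substrate, an endothelial gene, rose to 4.17 ± 0.03 over probes from 0.0048 to 6.99.

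All 5 ADAMTS-like genes passed, 3 higher and 2 lower in heart. Adamtsl2, a partner of fibrillin and of a latent TGF-beta-binding protein that is mutated in human geleophysic dysplasia, was at 1.68 and 1.77. It rose 3.30-fold (1.72 ± 0.06; limma adjusted p = 0.00179). Adamtsl5 was at 1.38 and 1.24, a rise of 2.48-fold (limma adjusted p = 0.00305). Adamtsl4, a fibrillin-binding protein of the fibres that suspend the eye's lens, was at 1.13 and 0.92, a rise of 2.03-fold (limma adjusted p = 0.00691). Adamtsl3 was at -2.14 and -2.28 and fell 4.63-fold (limma adjusted p = 0.00174). Adamtsl1, or punctin, fell to -1.44 ± 0.03, with 3 probes at -2.81, -1.48 and -0.04. Over ADAMTS and ADAMTS-like genes together 10 of 22 fell and 9 rose (median -0.41). These are 45.5% lower and 40.9% higher, against 39.3% and 33.8% of all genes, and 86.4% passed in either direction, against 73.1%.

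Probes of the same gene often differed. Of the 46 members 23 had more than 1 probe, and in 9 of these (39.1%) the probe means differed in sign: Adamts3, Adamts9, Adamts10, Adamts16, Adamts19, Adamts20, Mmp1a, Mmp9 and Mmp28. Over all genes with more than 1 probe the share was also 39.1%. The difference between the highest and lowest probe mean was over 1 in 8 members, with a median of 0.71 over the 23, against 0.95 over all such genes. The SD between arrays, with a median of 0.07 over the members and a maximum of 0.44 for Adamts16, does not cover this spread. Each of the other 23 members was read by 1 probe, so agreement between probes is unknown for them. Among these are Timp4, Timp2, Mmp2, Mmp8, Mmp11, Mmp13, Adamts4, Adamtsl2, Adamtsl4 and Adamtsl5.

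**Figure D4:**
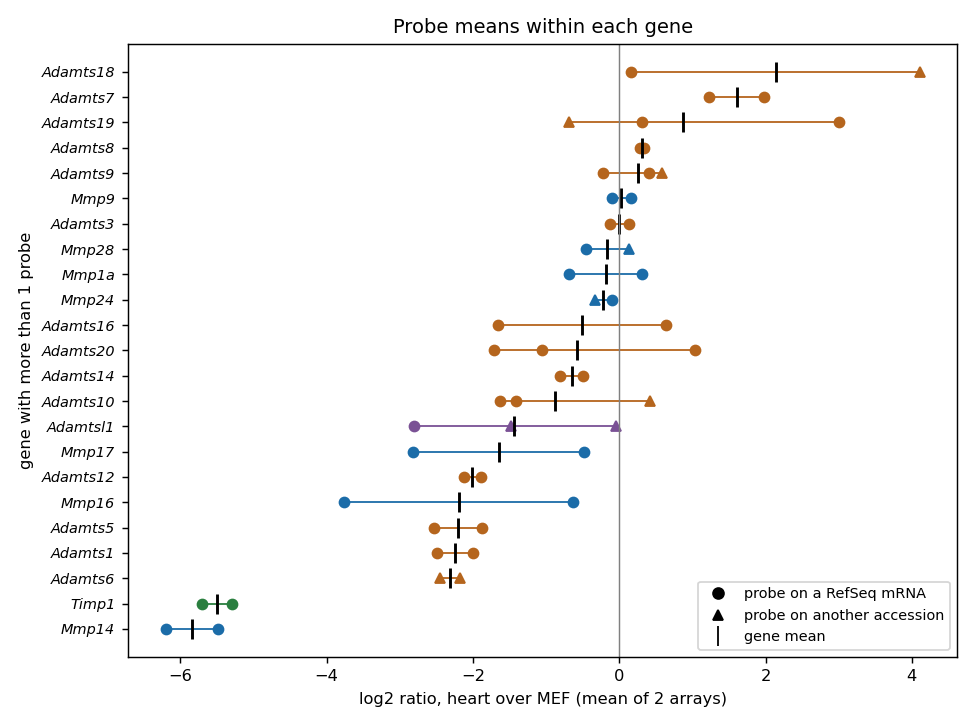
Mean log2 ratio (heart over MEF, 2 arrays) of every probe of the 23 genes with more than 1 probe; circles are probes on RefSeq mRNAs, triangles probes on other accessions, and the black tick is the gene mean. Probes of Mmp14 and Timp1 stay together below -5, whereas those of Adamts18 lie at 0.17 and 4.11.

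Lists of genes that work with these families were counted in the same test, in which 39.3% of all genes fell, 33.8% rose and 73.1% passed in either direction. Of 13 MMP substrates of the fibrillar and basement membrane matrix 12 fell and Lama2, a laminin chain of muscle basement membrane, rose (2.17 ± 0.04; median of the list -3.54), so that 92.3% of the list fell. Col1a1, the main fibrillar collagen chain, was at -7.38 ± 0.02 over probes from -9.51 to -5.29, Col5a2 at -7.11 ± 0.04 and Fn1, fibronectin, at -6.32 ± 0.36. Of 14 ADAMTS substrates and ADAMTS-like partners 9 fell (64.3%), 4 rose (28.6%) and 1 did not pass (median -0.91). Ltbp2, which binds fibrillin, fell to -5.40 ± 0.0001 and Fbn2, a fibrillin of embryonic tissue, to -3.53 ± 0.35 over probes at -6.77 and -0.29. Versican, Vcan, was at -0.74 ± 0.21 over 5 probes from -3.05 to 0.37, while the proteoglycan decorin, Dcn, rose to 3.59 ± 0.07.

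Other proteases of the matrix were set against the same background of 39.3% lower and 33.8% higher. Of 10 ADAM metalloproteinases 9 fell (90%), 0 rose and 1 did not pass (median -1.45); Adam8 was at -5.02 ± 0.08, Adam12 at -3.68 ± 0.43 and Adam23 at -2.02 ± 0.11 over probes from -4.13 to 0.03. Of 11 astacins, cathepsins and other matrix proteases 7 fell (63.6%), 1 rose (9.09%) and 3 did not pass (median -1.15). Bmp1, the procollagen C-proteinase, was at -2.87 ± 0.03, Htra1 at -2.50 ± 0.01, and Ctsk, a collagen-cutting cathepsin, at -1.93 ± 0.02. In the plasminogen system, whose product plasmin can activate MMPs, the 7 measured genes had a median of -0.34, with 4 falling (57.1%), 2 rising (28.6%) and 1 not passing. Plau, urokinase, was at -3.46 ± 0.05 and its receptor Plaur at -2.85 ± 0.04, while Serpinb2, a plasminogen activator inhibitor, rose to 2.34 ± 0.17 and Plg, plasminogen itself, to 1.20 ± 0.10.

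Genes that activate, restrain or clear these proteases went both ways in shares near those of all genes, with 6 of 13 falling (46.2%, against 39.3%), 5 rising (38.5%, against 33.8%) and 2 not passing (median -0.17). Reck, a membrane inhibitor of MMPs, fell to -1.89 ± 0.06, and the thrombospondins Thbs1 and Thbs2, which bind MMP2 for uptake, fell to -5.50 ± 0.03 and -4.56 ± 0.23. Pcsk6, a proprotein convertase, rose to 2.20 ± 0.06, Pzp, a broad protease inhibitor of plasma, to 2.18 ± 0.17 over probes at 0.50 and 3.86, and Bsg, known as an inducer of MMPs, to 1.03 ± 0.04. Furin, the convertase that opens pro-MMP14, did not pass at 0.27 ± 0.12. The 12 transcription regulators of MMP genes had a median of -1.16, with 9 falling (75.0%, against 39.3% of all genes). The others were 1 not passing and 2 rising (16.7%, against 33.8%), namely Fosb and Ets1 (0.75 ± 0.08). This list includes the 7 Fos and Jun family genes already counted above. Of 8 cytokine inducers 6 fell (75.0%), 1 rose (12.5%) and 1 did not pass (median -1.86): Tnf was at -5.00 ± 0.08, Il6 at -4.15 ± 0.16 and Tgfb3 at -3.84 ± 0.08, and Il1b rose to 1.36 ± 0.04.

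Fibroblast markers differed in the same comparison, in which 39.3% of all genes fell, 33.8% rose and 73.1% passed in either direction. Of 12 fibroblast markers 9 fell and 3 rose (median -2.64), among the risers Tcf21, a transcription factor of resident cardiac fibroblasts, at 3.83 ± 0.06. All 12 endothelial markers rose (median 4.26), as did 5 of 8 epicardial and 6 of 7 mast cell markers. Of 9 smooth muscle and pericyte markers 4 rose and 5 fell. These counts overlap with those of the substrate lists above. The fibroblast markers Col1a1, Col1a2, Col3a1 and Fn1 are also MMP substrates there. The fibroblast marker Dcn and the endothelial marker Vwf are also ADAMTS substrates there. The part of these cell types in the ratios of the metalloproteinases, ADAMTS genes and TIMPs was not tested.

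**Figure D5:**
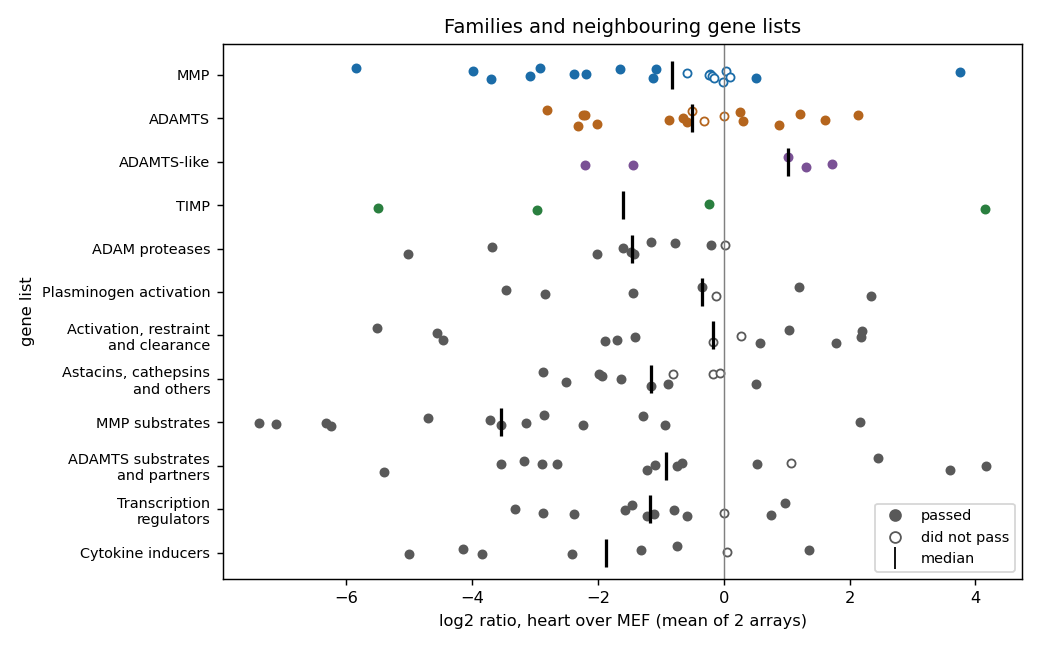
Mean log2 ratio (heart over MEF, 2 arrays) of each gene of the 4 families and of 8 neighbouring lists; filled points passed the limma test, open points did not, and the black tick is the median of the list. The median lies above 0 for the ADAMTS-like genes (1.02) and below 0 for the other lists shown, lowest for the MMP substrates (-3.54).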

How the data were processed

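The deposited table holds a value for each of 41174 probes on each array, and these were taken as log2 ratios of the channels. Agilent Feature Extraction was used, per the submitters' processing notes. Its version, and how the authors corrected background, normalized or filtered, is not given in the sources used here. As for the log base, it was taken from the largest absolute value, 11.6, a ratio of 3150 on the log2 scale and beyond the 65535 steps of a 16-bit scanner as a natural logarithm (111441). Channel intensities were not used here, so background and saturation could not be judged, and the number of arrays limits the precision.

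Probes were named from the platform annotation: 32664 had 1 symbol, 45 several and 8465 none here. All 74 member probes had gene identifiers found in RefSeq of GRCm38.p6. Within each array a gene's probes were averaged. Each gene mean was tested two-sided against 0 by an intercept model (limma 3.58.1, R 4.3.3, lmFit and eBayes), adjusted by Benjamini-Hochberg over 19532 genes, with 1 residual degree of freedom and a variance shared across genes. The smallest adjusted p it gave was 0.00136. The fit was also run on data simulated from its own fitted variance prior, which cannot show if that prior suits these arrays. Tables were joined in Python 3.11.15 with pandas 2.3.3. Promoter sequences and the coordinates printed with them are RefSeq's (GRCm38.p6), found for 31 of the 46 genes. No build is named for the values, and no other coordinates are given.

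The members, the neighbouring lists and the marker lists were chosen with earlier results of these data known. All members are accounted for; the rule for array-by-array values took the TIMPs and, among MMPs and among ADAMTS with ADAMTS-like genes, the 6 highest and 6 lowest of 1 sign on both arrays. Such values of Mmp12, Mmp20, Mmp25, Adamts3, Adamts13 and Adamts16 were added after they were seen. From each neighbouring list at most 4 genes, those farthest from 0, and 3 of opposite sign could be named; others named with a list, and the synapsin and overlapping genes, were chosen after their values were seen. The alternatives tried were centring, scaling, the median of probes, a test per probe, a test against a 2-fold change (limma treat), a robust prior, no shared variance, leaving out near-constant probes, a fold rule and leaving out each array.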

Additional observations from a re-analysis of the deposited data

How the results depend on the processing

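Of the 46 members 36 passed, against 14283 of all 19532 genes. With each array centred, or centred and scaled, 34 members passed, against 13073 and 12932 of all genes. With limma treat against a 2-fold change 23 members passed (7 higher), against 5797 of all genes. Without a variance shared across genes 16 passed (5 higher and 11 lower), against 6131 of all genes. The rule of at least 2-fold on both arrays held for 25 members (7 higher), against 7140 of all genes. Taking 1 array alone and counting genes past 2-fold, without a test, gave 26 to 27 members, 8 higher by either array and 18 to 19 lower, 7734 to 7766 of all genes, and a member median of -0.54 to -0.46. No member that passed changed sign under centring, scaling, the median of probes, leaving out near-constant probes or leaving out an array. Adamts3 and Mmp20, which did not pass, changed sign near 0. The other settings keep the gene mean, so its sign could not change in them. In the test per probe, a probe passed against the sign of the gene mean in Adamts9 (-0.22), Adamts10 (0.43) and Adamts20 (1.03). Centring ended the calls of Timp3, Mmp24, Adamts8 and Adamts9 and brought Mmp25 and Adamts16 past the threshold. The cause of these changes was not tested. When every probe of a gene had to pass in 1 direction 28 of the 46 members remained called, against 10954 of all 19532 genes. No paired analysis was possible because the series holds a single group of 2 arrays. Signal over background is unknown, so a ratio near 0 can be that of a gene measured in neither RNA.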
